A study of Mus musculus with 10 samples.

Results

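Collagen genes encode the triple-helical chains that form the fibrils, networks and filaments of the extracellular matrix. They were taken here as the protein-coding genes of the mm9 annotation (GENCODE vM1) with a symbol of the form Col, a number, a, a number, as in Col1a1. This rule gave 42 genes of 22380 protein-coding genes, with 1 further gene of that form not used here. It draws on names and on no measured value, although the family was chosen with earlier results of these data known.

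Polycomb repressive complex 2 (PRC2) places trimethylation on lysine 27 of histone H3 (H3K27me3), a mark of repressed genes that in embryonic stem cells (ESCs) lies at many CpG-rich promoters of developmental genes. Suz12 is a core subunit of PRC2, and Pcl3 is an accessory subunit of the Polycomb-like family. Collagen chains differ widely in when and where they are made: some belong to the basement membranes of the earliest embryo, and others to cartilage, tendon, bone or skin, which ESCs do not form until they differentiate.

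ChIP-seq was performed in mouse ESCs in 10 libraries, 6 of immunoprecipitated chromatin and 4 of input DNA. Suz12-TAP (FlagM2 antibody) and H3K27me3 were measured in cells of genotype Suz12 Suz12TAP/+, derived from the gene trap line XG122 of BayGenomics, expressing either Pcl3-shRNA or a scramble shRNA, with 1 library per antibody and shRNA; these cells all carry 1 tagged Suz12 allele at its own locus. Pcl3-TAP (FlagM2) was measured in E14 ESCs in which endogenous Pcl3 was knocked down with Pcl3-shRNA7 or Pcl3-shRNA6 and a tagged Pcl3 was put back, with 1 library each and 1 list of sites for both. Because shRNA cells were grown as picked clones and each condition has 1 library, no spread between cultures is known, and no test between conditions was possible. For 1 input library of the XG122 cells, the shRNA is written as Pcl3-shRNA6 in 1 label and as Pcl3-shRNA in another.

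The authors deposited 4 lists of sites, each site with a p-value: 8876 Suz12 binding sites in scramble cells, 5722 of these sites at which Suz12 was depleted in Pcl3-shRNA cells, 678 H3K27me3-depleted sites and 5242 Pcl3 binding sites. The lists hold no read counts, so the depth behind a site is unknown and the size of a loss cannot be given. All 5722 Suz12-depleted sites carry the position and p-value of a binding site, so their p-values measure binding and not loss. The p-values given with the sites are those deposited by the authors, which rest on reads and not on the spread between replicates. Lists of sites give no expression, so the labelled cell type could not be checked by its markers. Of 9 pluripotent stem cell genes found in the annotation, 2 had a Suz12 site, of which 1 was also in the depleted and Pcl3 lists, and 24.6% of all protein-coding genes had a Suz12 site.

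A gene was counted as having a site when the nearest base of the site lay within 2 kb of the start of any of its transcripts. Suz12 sites lay at 21 of the 42 collagen genes (50%), against 5499 of all protein-coding genes (24.6%). Suz12-depleted sites lay at 13 collagen genes (31%), against 17.6% of all genes. Pcl3 sites also lay at 13 collagen genes (31%), against 12.5% of all genes. H3K27me3-depleted sites lay at 2 collagen genes (4.76%), against 1.91% of all genes, a count of genes too small to be read as above the background. No site of any list lay near 20 collagen genes (47.6%), against 74.6% of all genes. Collagen genes have more annotated starts than other genes, with a median of 3.5 against 2. With the most upstream start of each gene alone the Suz12 count was again 21 collagen genes (50%), against 23.1% of all genes. For 4 or more starts, 42.9% of 21 collagen genes had a Suz12 site against 30.4% of all such genes, and 23.8% against 21% a depleted site. For 2 or 3 starts these shares were 66.7% against 28.4% and 44.4% against 20.8%. The 3 collagen genes with 1 start had no site, against 18.3% of all such genes with Suz12. The part of the number of starts was not tested.

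**Figure D1:**
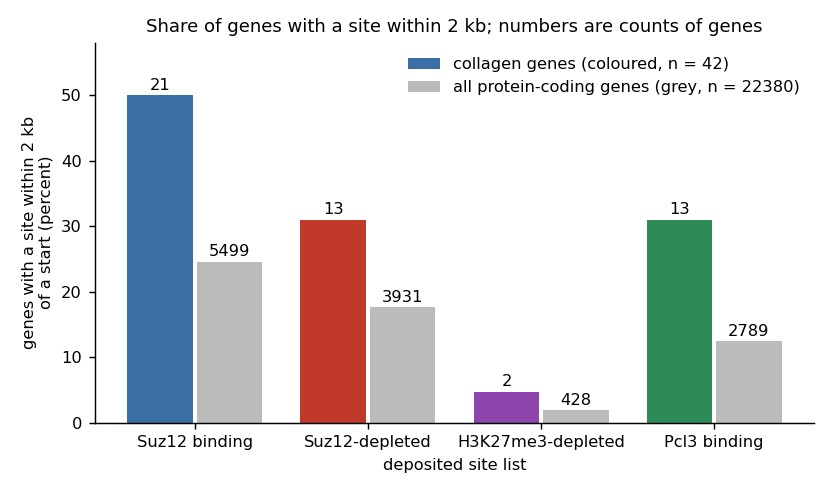
Percent of genes with a site of each deposited list within 2 kb of a transcript start, for the 42 collagen genes (coloured bars) and all 22380 protein-coding genes (grey bars). Numbers above the bars are counts of genes; the collagen share is 50% against 24.6% for Suz12 binding and 31% against 12.5% for Pcl3.

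No collagen gene had its nearest Suz12 site between 500 bp and 5 kb from a start. Over all genes, the share with a Suz12 site rose only from 23.4% at 500 bp to 26.1% at 5 kb. Few genes of any kind lie between, so this gap is not read as a trait of collagen genes. Taking the nearest Suz12 site of each gene, the farthest among genes counted was that of Col1a1, 300 bp from a start. The closest among genes not counted was that of Col20a1, at 25106 bp. For Pcl3 the corresponding genes were Col16a1, at 1853 bp, and Col18a1, at 5958 bp.

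The upstream sequences of 5 collagen genes are shown for how they differ in CpG, the dinucleotide in which PRC2 targets of ESCs are often rich. Col14a1 and Col7a1 are the members with an H3K27me3-depleted site, and Col2a1 has the Suz12 site with the smallest p-value. In the 1000 bp around the start, Col18a1 has the most CpG of the members without any site, and Col24a1 the fewest of those with a Suz12 site. Each run covers the 200 bases before the most upstream start of a protein-coding transcript, read 5′ to 3′ on the strand of the gene in mm9, and holds no exon; CpG is in capitals. The positions are chr15:55139105-55139304 for Col14a1 (plus strand), chr9:108855431-108855630 for Col7a1 (plus strand), chr15:97835156-97835355 for Col2a1 (minus strand), chr10:76629294-76629493 for Col18a1 (minus strand) and chr3:144955236-144955435 for Col24a1 (plus strand).
Col2a1: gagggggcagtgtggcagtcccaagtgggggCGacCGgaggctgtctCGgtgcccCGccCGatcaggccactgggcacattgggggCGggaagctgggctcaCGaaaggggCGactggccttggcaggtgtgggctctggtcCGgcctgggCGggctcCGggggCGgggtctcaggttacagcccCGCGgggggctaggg
Col14a1: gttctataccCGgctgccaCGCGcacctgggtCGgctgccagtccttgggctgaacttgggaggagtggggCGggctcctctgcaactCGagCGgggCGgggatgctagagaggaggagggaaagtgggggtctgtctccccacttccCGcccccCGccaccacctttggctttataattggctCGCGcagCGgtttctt
Col18a1: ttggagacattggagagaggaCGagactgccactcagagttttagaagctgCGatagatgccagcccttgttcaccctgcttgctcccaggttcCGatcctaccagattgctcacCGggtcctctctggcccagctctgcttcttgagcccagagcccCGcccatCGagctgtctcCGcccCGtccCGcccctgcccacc
Col7a1: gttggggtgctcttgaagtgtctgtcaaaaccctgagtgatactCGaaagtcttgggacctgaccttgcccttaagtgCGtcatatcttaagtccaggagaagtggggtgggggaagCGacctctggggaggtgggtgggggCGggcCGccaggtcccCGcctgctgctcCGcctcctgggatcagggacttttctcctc
Col24a1: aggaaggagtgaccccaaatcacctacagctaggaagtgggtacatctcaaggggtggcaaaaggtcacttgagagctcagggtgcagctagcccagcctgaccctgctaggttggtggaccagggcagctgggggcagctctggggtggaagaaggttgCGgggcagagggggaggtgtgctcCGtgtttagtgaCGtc
These runs hold 14 CpG in Col2a1, 13 in Col14a1, 9 in Col18a1, 7 in Col7a1 and 3 in Col24a1. In 200 bases the order differs from that in 1000 bp: Col5a3, without any site, holds 16 CpG, and Col9a2, with a Suz12 site, holds 1. Col4a1 and Col4a2 come next to Col2a1 in Suz12 p-value, but their starts lie 21 bp apart on opposite strands, so their upstream bases fall in exons of each other and were not printed.

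**Figure D2:**
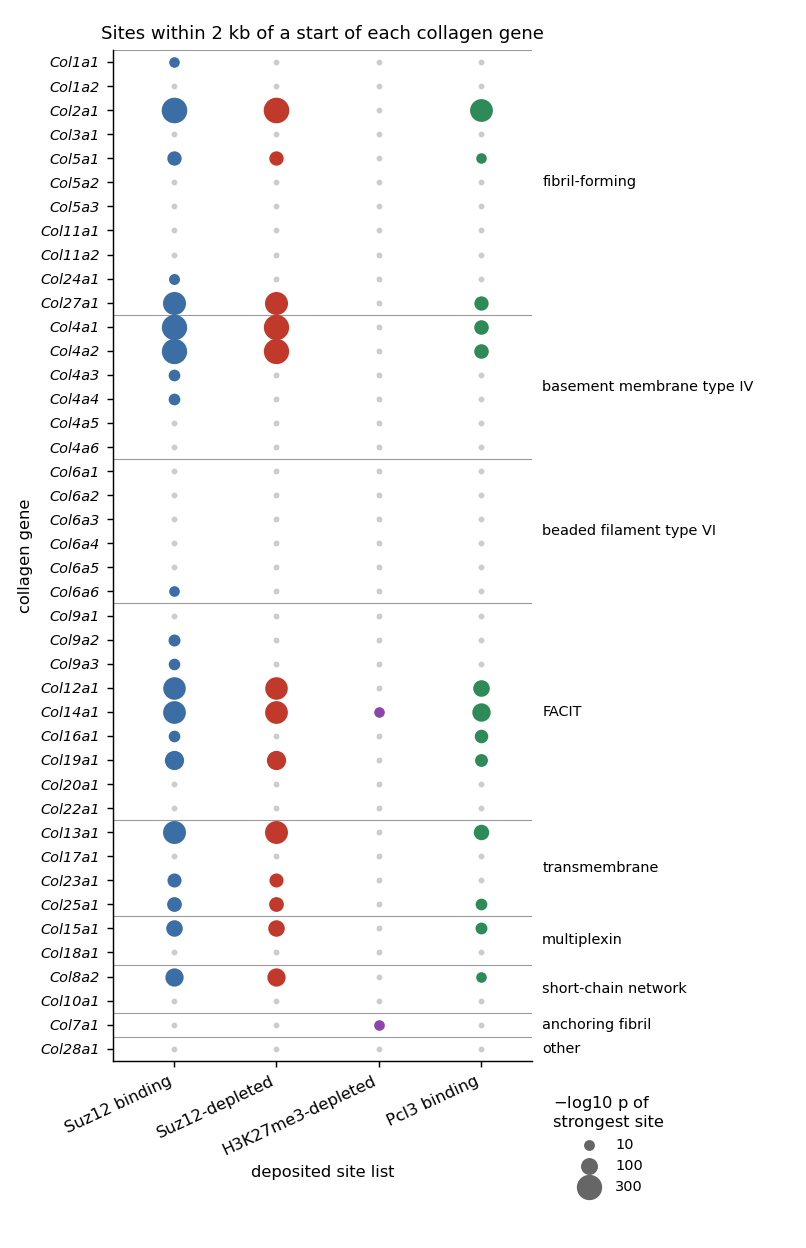
Each row is 1 of the 42 collagen genes, grouped by subfamily (FACIT, fibril-associated; multiplexin, Col15a1 and Col18a1), and each column a deposited list. A coloured dot marks a site within 2 kb of a start, its area growing with −log10 of the p-value of the strongest such site, and a small grey dot marks none; the large Suz12 dots stand in the same rows as the Suz12-depleted dots.

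Of the 11 fibril-forming collagens, whose chains build the cross-striated fibrils of connective tissue, 5 had a Suz12 site, and 3 of these were in the depleted list. Over all genes 24.6% had a Suz12 site, and 71.5% of those had a depleted site. Counts within a subfamily are too small to be set against these shares. Col2a1, the chain of the main cartilage collagen, lay under a Suz12 site of 5000 bp (chromosome 15, 97831351 to 97836350) that covers upstream sequence, UTR, coding exons and introns. Its p-value is written as 0, the form in which 435 of the 8876 Suz12 sites appear. This site was in the Suz12-depleted list, whereas a second, 700 bp site in its introns (p-value 2.226e-13) was not. Pcl3 occupied 4700 bp of the same stretch (p-value 1.216e-230) and a further 950 bp downstream (p-value 4.613e-17).

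Col27a1, a fibril-forming chain of developing cartilage, had a 3100 bp Suz12 site that reaches 2662 bp downstream of its most upstream start (chromosome 4, 62874601 to 62877700, p-value 8.400e-237). It was in the depleted list and held a 1650 bp Pcl3 site (p-value 1.985e-56). Col5a1, a chain of the minor fibrillar collagen that regulates fibril assembly, had a 1450 bp Suz12 site across its start (chromosome 2, 27741651 to 27743100, p-value 2.241e-57), also in the depleted list. Its Pcl3 site was 400 bp wide, the narrowest width in that list, lay 556 bp from the start and had a p-value of 8.768e-08, close to the authors' cutoff of 1e-07.

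The remaining fibril-forming chains had weak sites or none. Col24a1, another fibril-forming chain, had a 550 bp Suz12 site at its start (chromosome 3, 144955401 to 144955950, p-value 3.818e-12). Col1a1, a chain of the main collagen of bone, skin and tendon, had a 400 bp site inside an intron (chromosome 11, 94798301 to 94798700), 763 bp downstream of its most upstream start, with a p-value of 4.019e-08. Neither was in the depleted list, and neither gene had a Pcl3 site. Col1a2, which encodes the partner chain of Col1a1, and Col3a1, Col5a2, Col5a3, Col11a1 and Col11a2 had no site of any list.

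The 6 type IV chains, which form the network of basement membranes, are encoded as 3 pairs of genes transcribed away from each other. Col4a1 and Col4a2, the widespread chains, share 1 Suz12 site of 3150 bp over both starts (chromosome 8, 11311301 to 11314450, p-value 6.294e-299). This site was in the depleted list and held a 2750 bp Pcl3 site (p-value 1.030e-60). Col4a3 and Col4a4, chains of the kidney filtration barrier whose starts lie 72 bp apart, share a 1150 bp Suz12 site (chromosome 1, 82583051 to 82584200, p-value 6.062e-21), which was neither in the depleted list nor near a Pcl3 site. Col4a5 and Col4a6, with starts 1309 bp apart on the X chromosome, had no site within 2 kb, and their nearest Suz12 sites lay 62958 and 247232 bp away. The 3 pairs thus showed 3 states: Suz12 with depletion and Pcl3, Suz12 alone, and no site. Counting genes with starts within 2 kb of each other as 1 left 19 of 39 collagen genes with a Suz12 site, 12 with a depleted site and 12 with a Pcl3 site.

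Of the 6 type VI chains, which make the beaded filaments around cells, 1 had a Suz12 site and none a site of another list, counts too small to be set against the 24.6% of all genes with a Suz12 site. Col6a6 had a 450 bp Suz12 site at its start (chromosome 9, 105730201 to 105730650, p-value 5.809e-09), which ranks 8141 of the 8876 Suz12 sites by p-value and was not depleted. Col6a1, Col6a2, Col6a3, Col6a4 and Col6a5 had no site of any list.

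The 9 fibril-associated collagens, which bind to the surface of fibrils rather than forming them, held Suz12 sites at 6 genes, of which 3 were depleted. These counts too are small beside the 24.6% of all genes with a Suz12 site and the 71.5% of those depleted. Col14a1, found on the fibrils of tendon and skin, was the only collagen gene with a site in all 4 lists. Its Suz12 site spanned 3400 bp around the start (chromosome 15, 55137651 to 55141050, p-value 1.489e-229) and its Pcl3 site 3100 bp (p-value 1.156e-129). The H3K27me3-depleted site of 1000 bp (chromosome 15, 55139251 to 55140250) lay wholly inside the Suz12 site, reaching 945 bp downstream of the start, over UTR and intron. Its p-value was 9.735e-08. By the authors' methods it should measure the loss, but the 4 lists hold no H3K27me3 binding sites against which to check this.

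Col12a1, which decorates fibrils of dense connective tissue, had a depleted Suz12 site of 3250 bp (chromosome 9, 79565151 to 79568400, p-value 8.676e-225) and a Pcl3 site of 3150 bp (p-value 1.835e-95). Col19a1, a fibril-associated chain known from muscle and nerve, had a depleted Suz12 site of 1800 bp (chromosome 1, 24592901 to 24594700, p-value 9.390e-147) and a Pcl3 site of 1500 bp (p-value 1.644e-35). In both genes the Suz12 and Pcl3 sites covered the start.

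Type IX collagen, the fibril-associated collagen of cartilage, has 3 chains that were not alike. Col9a2 had a 1050 bp Suz12 site (chromosome 4, 120711901 to 120712950, p-value 1.797e-24) and Col9a3 an 850 bp site (chromosome 2, 180332751 to 180333600, p-value 2.504e-19), neither in the depleted list nor near Pcl3, whereas Col9a1 had no site. Col16a1, a fibril-associated chain of skin and cartilage, had a 900 bp Suz12 site at its most upstream start (chromosome 4, 129724601 to 129725500, p-value 4.079e-20) that was not depleted. The Pcl3 site counted for Col16a1 (chromosome 4, 129776701 to 129778800, p-value 2.958e-45) lay 51617 bp away at the other end of the gene, downstream of it, 1853 bp from the start of an internal transcript not annotated as protein-coding and 1002 bp from the start of the neighbouring gene Pef1. Col20a1 and Col22a1 had no site.

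Of the 4 transmembrane collagens, which are anchored in the cell membrane, 3 had a Suz12 site and all 3 were in the depleted list. With 24.6% of all genes bound by Suz12 and 71.5% of those depleted, these counts are too small to be read as a trait of the subfamily. Col13a1, a component of cell adhesion sites and the neuromuscular junction, had a Suz12 site of 2700 bp (chromosome 10, 61440051 to 61442750, p-value 7.958e-235) with a Pcl3 site of 1950 bp inside it (p-value 2.166e-75) and a second, 1150 bp Pcl3 site upstream of it (p-value 6.387e-32). Col25a1, known from neurons and motor innervation, had a Suz12 site of 1550 bp (chromosome 3, 129883351 to 129884900, p-value 1.693e-63) and a Pcl3 site of 1150 bp (p-value 3.372e-21). Col23a1, a transmembrane chain of epithelia, had a Suz12 site of 1650 bp (chromosome 11, 51102951 to 51104600, p-value 1.083e-52). Col23a1 was the only gene of the 13 with a depleted site and no Pcl3 site, its nearest Pcl3 site being 161722 bp away. Col17a1, the hemidesmosomal collagen of skin, had no site.

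The remaining subfamilies are small. Col15a1, a basement membrane collagen with glycosaminoglycan chains, had a depleted Suz12 site of 1700 bp (chromosome 4, 47220451 to 47222150, p-value 2.075e-93) and a Pcl3 site of 1050 bp (p-value 9.593e-23), whereas its relative Col18a1 had none. Col8a2, a network-forming chain of the cornea and vessels, had 3 Suz12 sites near its starts: a depleted site of 1250 bp at the most upstream start (chromosome 4, 125963501 to 125964750, p-value 1.851e-43), a site of 1050 bp just downstream that was not depleted (p-value 3.281e-22), and a depleted site of 2050 bp at a start farther downstream (chromosome 4, 125977801 to 125979850, p-value 4.760e-127). Its Pcl3 site was 400 bp wide and lay within the last of these (p-value 1.831e-08). Col10a1, the collagen of hypertrophic cartilage, and Col28a1 had no site.

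Col7a1, which forms the anchoring fibrils that hold the epidermis to the dermis, was listed for H3K27me3 and for nothing else. The H3K27me3-depleted site of 1050 bp (chromosome 9, 108856701 to 108857750, p-value 1.265e-08) lay inside the gene over coding exons and introns, 911 bp from the nearest start. The nearest Suz12 site was 55919 bp away and the nearest Pcl3 site 260431 bp away. Of all 428 genes with an H3K27me3-depleted site, 399 (93.2%) also had a Suz12-depleted site, and Col7a1 is among the few without one. The sites of Col7a1 and Col14a1 rank 413 and 655 of 678 by p-value, and with p-values of at most 1e-12 the count was 0 of 42 collagen genes, against 0.371% of all genes.

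**Figure D3:**
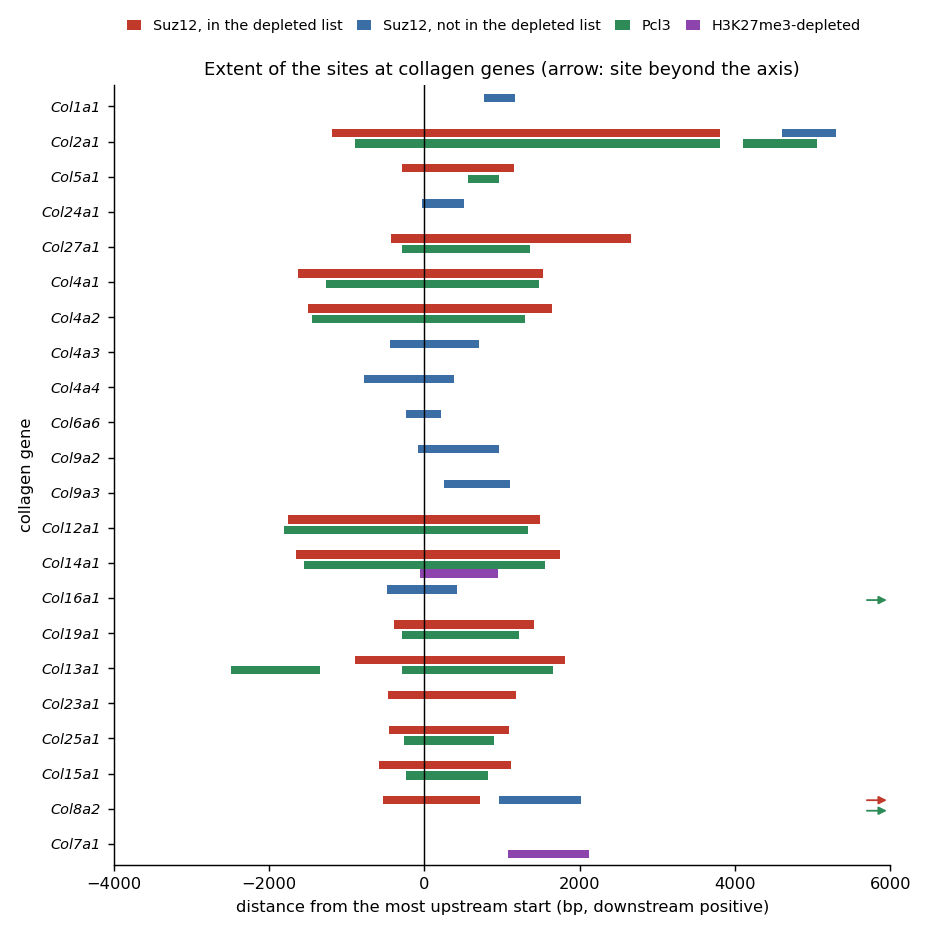
Extent of each site at the 22 collagen genes with a site in any list, drawn against distance in bp from the most upstream start of the gene. Red bars are Suz12 sites in the depleted list, blue bars Suz12 sites not in it, green bars Pcl3 sites and purple bars H3K27me3-depleted sites; red bars are mostly longer than blue bars and cross the start, and green bars lie within them at most genes.

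The Suz12 sites sat on the starts. A Suz12 site covered the most upstream start in 19 of the 21 genes, with Col1a1 and Col9a3 as the exceptions, and in all 13 genes with a depleted site. Pcl3 sites shared bases with a Suz12 site at 12 of 13 collagen genes, the exception being Col16a1. In 11 of these 12 genes the strongest Pcl3 site lay wholly inside a Suz12 site, and in Col12a1 98.4% of its bases did. Positions and shared bases were not counted over all genes, so these counts are not read as a trait of collagen genes. Of all genes with a Pcl3 site, 93.5% also had a Suz12 site.

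Pcl3 sites and depleted sites fell mostly on shared collagen genes. Of the 13 collagen genes with Suz12 and Pcl3 sites, 12 (92.3%) had a depleted site, against 93.6% of all genes with both sites. Of the 8 collagen genes with Suz12 and no Pcl3 site, 1 (12.5%) had a depleted site, against 51.5% of all such genes. These 8 genes are few, and Col4a3 and Col4a4 among them share 1 site. Those not depleted had −log10 p of 23.7 or less at their strongest Suz12 site. Over all genes 5.45% were depleted below 10, 35.3% from 10 to 20 and 75.9% from 20 to 30. The part of site strength in this contrast was not tested. Among collagen genes with a Suz12 site 61.9% were depleted, against 71.5% of all genes with a Suz12 site, so the larger share of collagen genes in the depleted list goes with a larger share bound by Suz12 and not with a larger share of the bound genes depleted.

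The depleted collagen genes were those with the strongest Suz12 sites. For the strongest Suz12 site of each gene, −log10 of the p-value had a median of 62.8 over the 21 collagen genes, from 7.4 to 307, against a median of 36.1 over all 5499 genes with a Suz12 site. In the 13 depleted genes it ran from 52 at Col23a1 to 307 at Col2a1, where the p-value of 0 was placed at the smallest value written in the list. In the 8 genes without depletion it ran from 7.4 at Col1a1 to 23.7 at Col9a2, so the groups did not overlap. Their median widths were 2700 and 875 bp. Over all genes the medians of −log10 p stood in the same order, 62.9 with and 11.2 without depletion. The ranges over all genes overlapped, from 7.27 to 307 with and from 6.98 to 72.1 without depletion. The gap between the collagen groups rests on 21 genes. Among all genes, 5.45% had a depleted site where −log10 p was below 10, 75.9% where it was 20 to 30, and 100% where it was 200 or more. None of the 3 collagen genes from 20 to 30, which are Col4a3, Col4a4 and Col9a2, was depleted, and 2 of these share 1 site. Depletion and the strength of the site moved together, and their parts cannot be told apart in these lists.

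**Figure D4:**
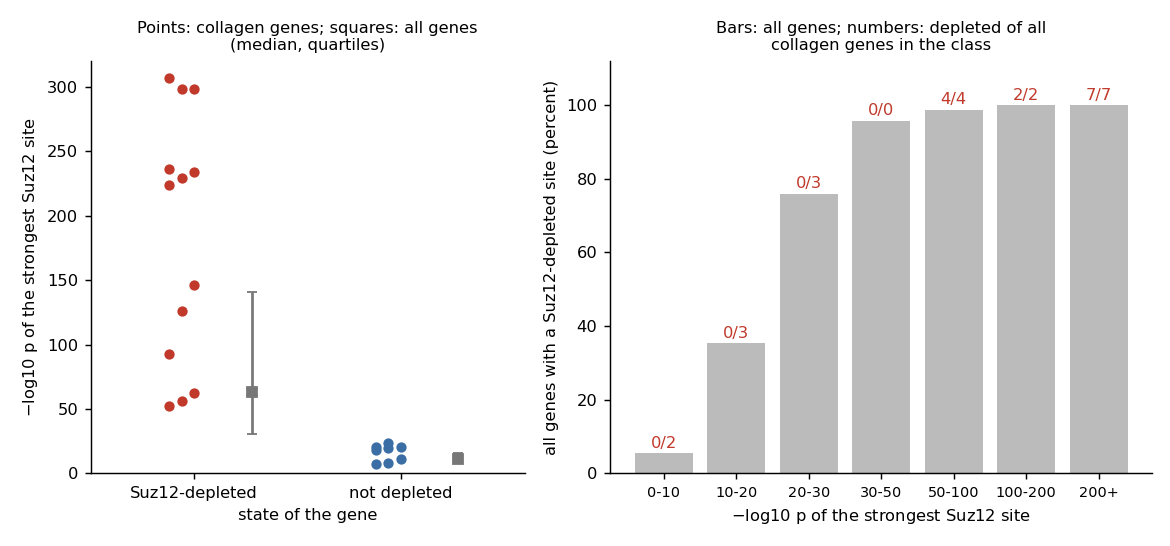
Left, −log10 p of the strongest Suz12 site of each collagen gene (points) with and without a depleted site, beside the median and quartiles of all genes in the same state (grey squares). Right, percent of all genes with a depleted site by strength of the Suz12 site (bars), with the number of depleted collagen genes of all collagen genes in each class; the 13 depleted collagen genes sit at 52 or more and the 8 others at 23.7 or less.

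The collagen genes also divided by the sequence at their starts. In the 1000 bp centred on the most upstream start of a protein-coding transcript, collagen genes with a Suz12 site had a median of 6.2 CpG per 100 bp and those without 1.6. The corresponding medians over all genes were 6.4 and 2.6. The 13 depleted collagen genes ran from 4.4 CpG per 100 bp at Col14a1 and Col19a1 to 9.8 at Col23a1, with a median of 7.1. The 8 collagen genes with Suz12 and no depletion ran from 2 at Col24a1 to 4.8 at Col16a1, with a median of 3.55, whereas all genes of that kind had a median of 6.

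The median over all protein-coding genes was 4.1 CpG per 100 bp, and 17 collagen genes lay above it. Of these, 16 (94.1%) had a Suz12 site, against 38% of all genes above the median, and Col18a1 was the one without. Of the 25 collagen genes at or below the median, 5 (20%) had a Suz12 site, against 11.3% of all genes: Col1a1, Col6a6, Col9a2, Col9a3 and Col24a1. None of these 5 genes was depleted, and all 13 depleted collagen genes lay above the median. Over all 3931 genes with a depleted site the first quartile was 4.5 CpG per 100 bp, so most of them lay above it too. The collagen genes poorest in CpG were Col28a1 (0.3 per 100 bp), Col20a1 (0.5) and Col3a1 (0.7), and none had a site.

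The letters GCGCGC, which read alike on both strands, occurred in the 1000 bp windows of 8 of the 13 depleted collagen genes (61.5%), 3 of the 8 with Suz12 and no depletion (37.5%) and 2 of the 21 without Suz12 (9.52%). Over all genes the shares were 56.4%, 50.4% and 24.3%, and 31.8% of all windows held these letters. A match is a description of the sequence and does not mark a binding site.

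**Figure D5:**
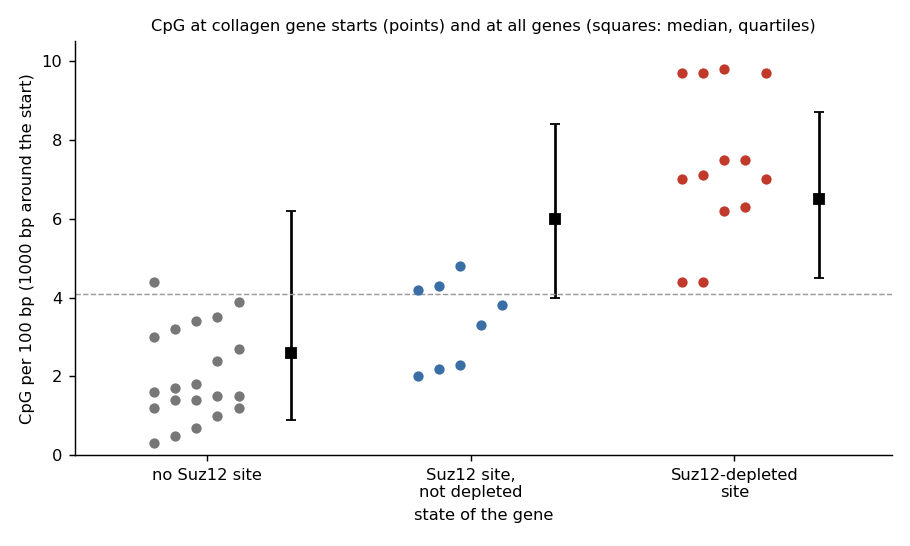
CpG per 100 bp in the 1000 bp around the start of each collagen gene (points), by whether the gene had no Suz12 site, a Suz12 site not in the depleted list or a Suz12-depleted site. Black squares and bars give the median and quartiles of all genes in the same state, and the dashed line the median of all genes, 4.1. The depleted collagen genes all lie above the line, as does the first quartile of all genes with a depleted site.

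Other genes of the collagen pathway, 67 genes found from lists of enzymes, receptors, matrix partners and regulators, gave a Suz12 site at 36 (53.7%), a depleted site at 25 (37.3%), an H3K27me3-depleted site at 5 (7.46%) and a Pcl3 site at 19 (28.4%), against the backgrounds given above. Counts are also given by list. Of 26 genes for processing and crosslinking of collagen chains, 19 had a Suz12 site, 12 a depleted site and 12 a Pcl3 site. Over all genes these shares were 24.6%, 17.6% and 12.5%. Of 8 regulators of collagen transcription, 7 had a Suz12 site, 6 a depleted site and 6 a Pcl3 site. Of 9 collagen receptors, 4 had a Suz12 site and 3 a depleted site, and of 14 laminins, nidogens and perlecan 6 had a Suz12 site and 4 a depleted site, with no Pcl3 site. None of 10 small leucine-rich proteoglycans, which coat collagen fibrils, had a site of any list. Counts in the lists of 8 to 14 genes are too small to be set against the shares of all genes. No difference between the lists is read from them.

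The 5 pathway genes with an H3K27me3-depleted site all had Suz12, Suz12-depleted and Pcl3 sites as well. Of all 428 genes with an H3K27me3-depleted site, 93.2% also had a Suz12-depleted site, so this is near the background. The share of those genes with a Pcl3 site was not counted. Loxl1, a crosslinking oxidase, had its H3K27me3-depleted site on the start (chromosome 9, 58159851 to 58161300, p-value 5.908e-09). P4ha2, a subunit of the prolyl hydroxylase that stabilises the triple helix, also had it on the start (chromosome 11, 53912951 to 53914350, p-value 1.704e-09). Bmp1, which removes the carboxy-terminal propeptide of fibrillar collagens, had it 234 bp from a start (chromosome 14, 70920301 to 70921300, p-value 4.461e-08). Adamts2, which removes the amino-terminal propeptide, had it 382 bp from a start (chromosome 11, 50609301 to 50610300, p-value 9.269e-08). Sox9, the cartilage regulator that activates Col2a1, had it 559 bp from a start (chromosome 11, 112646601 to 112647650, p-value 4.172e-08). Chromosome 11 holds 3 of these 5 genes, and 7.5% of its protein-coding genes had an H3K27me3-depleted site, against 1.91% of all genes; the part of a chromosome-wide difference between the cell populations was not tested. Neither Col14a1 nor Col7a1 is on chromosome 11.

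The nearest Suz12 sites of the 20 collagen genes without a site of any list lay from 25106 bp away at Col20a1 to 1549155 bp away at Col11a1. The median was 140702 bp. This distance was not computed for all genes without a site, so it is not read as large or small. The lists do not say whether these 20 collagen genes were expressed or silent in the ESCs. Reads that align to more than 1 place were not used by the authors, so absence of a site is absence from these lists.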

How the data were processed

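The members and gene lists were chosen with earlier results of these data known. The authors aligned reads to mm9 with bowtie (the version is not given in the sources used here), kept reads that aligned to 1 place, equalized the background of paired libraries and tested 400 bp windows with the Skellam distribution at a cutoff of 1e-07. Overlapping windows were joined. The only measured value deposited is the p-value of each site, and no read counts or depths were used here. P-values written as 0 were placed at the smallest other value of their list. Unique alignment can leave repeats without sites, and equalizing the background assumes that it is alike in both libraries.

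Distances were taken from the nearest base of a site to every start of a gene in GENCODE vM1, with a limit of 2 kb. Positions are 1-based in mm9; every site lay within the chromosomes of the NCBIM37 sequence used. CpG was counted in 1000 bp. Every collagen gene with a site is named with it; pathway genes are named only where H3K27me3 was depleted. Pef1 was named after its values were seen. No test was made, since each condition has 1 library and Pcl3 has 1 list; counts stand beside those over all genes. The alternatives were distances of 500 bp, 1 kb and 5 kb, site centers, coding or most upstream starts, p-values of at most 1e-12, omission of chromosome 11, merged neighbours, a 500 bp CpG window and the nearest site. The distance functions were tested on simulated data and differed at 0 of 600 genes from a search of all pairs. Python 3.11.15, numpy 2.4.6, scipy 1.17.1 and matplotlib 3.10.9 were used. No paired analysis was possible because no result comes from a test.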

Additional observations from a re-analysis of the deposited data

How the results depend on the processing

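The counts of collagen genes with Suz12, Suz12-depleted and Pcl3 sites stayed within 1.5 times their value under every alternative run. The Suz12 count ran from 18 to 21, the Suz12-depleted count from 12 to 13 and the Pcl3 count from 10 to 13. With sites of p at most 1e-12, Col1a1, Col6a6 and Col24a1 had no Suz12 site. In the Suz12-depleted list that cutoff acts on p-values of binding. The 13 genes kept there thus say nothing about a stricter call of loss. Col16a1 had no Pcl3 site with protein-coding starts, site centers, 500 bp, 1 kb or the most upstream start. Col8a2 had none with 500 bp, the most upstream start or p at most 1e-12, and Col5a1 none with 500 bp or p at most 1e-12. The H3K27me3-depleted count was 1 within 500 bp of a start, where Col7a1 was not counted, and 0 with p-values of at most 1e-12, so it rests on weak sites. The share of all genes with a Suz12 site ran from 20.2% to 26.1%. The median CpG of collagen genes with a Suz12 site was 7.4 per 100 bp in a 500 bp window and that of those without was 1.8. With the nearest site in place of the strongest, the median −log10 p at collagen genes was 52. With 1 library per condition, no alternative covers the variation between cultures.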

Other observations

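Collagen genes are long, with a median length of 110850 bp against 15420 bp for all protein-coding genes, and a few sites lay inside them more than 2 kb from every start. There were 5 such Suz12 sites, 1 each in Col4a1, Col4a2, Col8a2, Col13a1 and Col16a1, all genes that also had a Suz12 site at a start. Of these, 2 were in the Suz12-depleted list. The site in Col8a2 (chromosome 4, 125973551 to 125974900, p-value 1.918e-54) covers UTR and intron and holds a 400 bp Pcl3 site (p-value 7.664e-08). The site in an intron of Col16a1 (chromosome 4, 129764451 to 129765150, p-value 8.023e-14) was depleted, whereas the stronger site at the start of the same gene (p-value 4.079e-20) was not. The intronic sites of Col4a1 (p-value 4.663e-09) and Col13a1 (p-value 9.962e-15) and the site in Col4a2 (p-value 8.153e-11) were not depleted, although the sites at the starts of these genes were. No H3K27me3-depleted site lay in a collagen gene away from its starts.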
